A study of Homo sapiens with 4 samples.

Results

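The 48 genes described here are the secreted Wnt ligands, the receptors that bind them, the secreted antagonists that keep ligand and receptor apart, and a few targets through which cells report Wnt activity. They were chosen by gene symbol out of 34555 named genes, with earlier results of these data known. All 48 were found among the 65423 transcripts of the deposited table, as 75 transcripts. Each gene is represented by its transcript with the highest mean count. The samples were MDA-MB-231 cells, a human breast cancer cell line labelled parental, and MDA-MB-231-LM2 cells (LM2), its subline labelled highly pulmonary metastatic. Neither line carried a further treatment or engineered allele by the labels. The culture media differed too (L-15 without added CO2 for the parental cells, DMEM with CO2 for LM2), and medium and cell line cannot be told apart. By the labels, each line has 2 samples, whereas the table has a single column for each. The sources used here do not say if a column pools both samples. No difference below has a replicate check, and none has a p-value. Each fold compares counts scaled by their column total (130689252 counts in parental and 128985870 in LM2 cells). The 95% interval in parentheses is exact (Clopper-Pearson) and covers counting error only. In bulk RNA, fewer cells that express a gene and less RNA per cell cannot be told apart.

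Wnt proteins are lipid-modified secreted ligands that bind Frizzled receptors on the cell surface. Together with the co-receptors LRP5 and LRP6 they stabilise β-catenin, which enters the nucleus and acts with factors of the TCF/LEF family on target genes. Other Wnt proteins, of which WNT5A is the best known, signal through ROR1, ROR2, RYK and PTK7 to polarity and migration without β-catenin. Secreted antagonists act at both steps: Dickkopf proteins (DKK) such as DKK1 bind LRP5 and LRP6, whereas SFRP proteins and WIF1 bind the Wnt ligand itself.

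LM2 cells had more RNA of the ligand WNT5A and of the receptor FZD8 than MDA-MB-231 cells, and less RNA of the receptors FZD7, ROR1 and PTK7 and of the antagonist DKK1. Of the 48 genes, 25 had a mean of at least 50 counts. Of these 25, 2 were over 2-fold higher in LM2 (8.0%), against 4.58% of all 15440 named genes at that mean. A further 4 were over 2-fold lower (16.0%), against 6.90% of all named genes, and 19 lay within 2-fold. The counting intervals of all 6 lay wholly beyond 2-fold, as did those of 3.21% of named genes on the higher side and 4.71% on the lower side. Of the 25 intervals, 6 lay above equal levels and 13 below, beside 37.0% and 38.3% of all named genes. The median log2 ratio of the 25 genes was -0.22, beside -0.0043 over all named genes. The counts read against these shares are small, and nothing particular to Wnt genes as a set is drawn from them. Nearest to the 2-fold limit among the 6 genes past it was PTK7, at a log2 ratio of -1.15. Nearest among the 19 within it were WNT3 at -0.91, AXIN2 at 0.88 and LEF1 at 0.87.

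**Figure D1:**
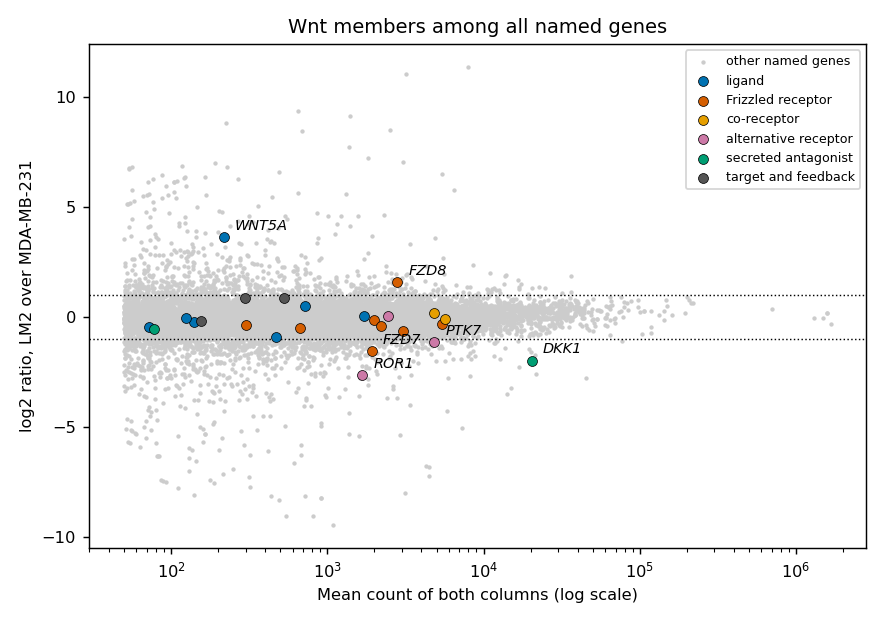
Log2 ratio, LM2 over MDA-MB-231 (y axis), against the mean count of both columns (x axis, log scale), for all 15440 named genes at the minimum mean of 50 counts (grey) and the 25 Wnt genes among them (coloured by role). Dotted lines mark 2-fold, and the 6 labelled genes lie beyond them, from WNT5A at 3.63 to ROR1 at -2.63.

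The regions upstream of 4 of these 6 genes are shown because the RNA of these genes differed most among those with a sequence at hand, and because DKK1 is itself a known target of TCF/LEF factors. Each run holds the 250 bases before the start site in the strand of the gene, from RefSeq on GRCh38.p14, a later build than the hg19 build of the counts. Capitals mark matches to the TCF/LEF motif, searched as CTTTGNN with A or T at each N, and to the TATA motif TATAAA, both on either strand. The TATA motif was added after the sequences were seen.
DKK1, chr10:52314031-52314280, plus strand: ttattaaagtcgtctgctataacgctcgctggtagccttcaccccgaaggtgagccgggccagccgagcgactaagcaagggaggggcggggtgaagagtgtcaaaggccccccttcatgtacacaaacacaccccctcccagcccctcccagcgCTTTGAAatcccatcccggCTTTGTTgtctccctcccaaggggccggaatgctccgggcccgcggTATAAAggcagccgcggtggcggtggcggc
FZD8, chr10:35642297-35642546, minus strand: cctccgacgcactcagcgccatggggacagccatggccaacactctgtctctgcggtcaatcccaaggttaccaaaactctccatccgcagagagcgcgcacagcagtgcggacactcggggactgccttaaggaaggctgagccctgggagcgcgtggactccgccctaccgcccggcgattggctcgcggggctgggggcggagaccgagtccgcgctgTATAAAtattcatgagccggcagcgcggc
WNT5A, chr3:55487307-55487556, minus strand: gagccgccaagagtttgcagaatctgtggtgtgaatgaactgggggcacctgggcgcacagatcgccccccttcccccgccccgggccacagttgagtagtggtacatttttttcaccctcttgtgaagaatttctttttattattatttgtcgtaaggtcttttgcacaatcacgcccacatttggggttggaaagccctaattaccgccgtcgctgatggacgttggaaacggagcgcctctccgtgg
ROR1, chr1:63773767-63774016, plus strand: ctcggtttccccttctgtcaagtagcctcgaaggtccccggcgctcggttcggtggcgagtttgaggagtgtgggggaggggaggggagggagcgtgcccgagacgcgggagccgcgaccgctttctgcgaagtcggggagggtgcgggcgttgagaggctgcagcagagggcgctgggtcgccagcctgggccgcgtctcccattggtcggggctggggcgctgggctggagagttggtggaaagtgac
The window of DKK1 held 2 TCF/LEF matches, CTTTGAA from position -95 and CTTTGTT from position -76, counted from the start site. At least 1 match was found in 12.0% of all 35116 windows, and at least 2 in 1.21%. A RefSeq window was at hand for 33 of the 48 genes (38 windows), and 2 of these genes, DKK1 and TCF7, had a match. The match of TCF7 lay in the second of its 2 windows. TATAAA began at position -30 in DKK1 and at position -29 in FZD8, and 10.7% of all windows held that motif on either strand. Of the 33 genes, 4 held it. The others were TCF7 (from position -32) and WNT5B (from position -78), both within 2-fold. The printed windows of WNT5A and ROR1 held neither motif. That of ROR1 had 69.2% G and C and 24 CG pairs, and that of WNT5A 52.8% and 14, beside medians of 58.0% and 11 over all windows. A second window of WNT5A, farther from the start of the counted transcript, held neither motif and had 64.4% and 18. A match is a description of the letters and not of binding.

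Among the 18 ligands, WNT5B was the most abundant per length in both cell lines. Levels are compared between genes by RPKM, which divides each count by the transcript's length and the column's total. At 1 kilobase, 131 parental counts or 129 LM2 counts give an RPKM of 1. WNT5B had 1697 counts in parental and 1752 in LM2 cells, an RPKM of 5.95 and 6.22, and its ratio was 1.05 (0.978 to 1.12), an interval that holds equal levels. By RPKM it made up 58.0% of the summed ligand RPKM in parental and 58.8% in LM2 cells. WNT5B has 2 listed transcripts with the same counts.

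WNT5A, a ligand of the β-catenin-independent arm, had the largest difference of all 25 genes. It had 33 counts in parental and 402 in LM2 cells, and was 12.3-fold higher in LM2 (8.65 to 18.2). Its level stayed low in LM2, at an RPKM of 0.505 against 0.0409 in MDA-MB-231. By RPKM, WNT5A made up 0.399% of the summed ligand RPKM in MDA-MB-231 and 4.77% in LM2. As a share of ligand counts, which are not per length, it went from 0.970% (0.669 to 1.36, exact) to 10.9% (9.91 to 12.0). A second transcript of WNT5A (NM_001256105) had 30 and 354 counts. Of all named genes, 89 had a larger ratio. None of the 20 nearest named genes at the minimum count (10 on each side, here and below) passed 2-fold (log2 ratios from -0.57 to 0.47). On the log2(RPKM + 1) scale WNT5A was at 0.53 and no longer past 2-fold, since both of its levels lie under an RPKM of 1.

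WNT7B and WNT3 were the other ligands with an RPKM over 1 in at least 1 cell line. WNT7B, which signals through β-catenin in many epithelia, had 604 and 835 counts and was 1.40-fold higher in LM2 (1.26 to 1.56). WNT3, a classic activator of β-catenin, had 613 and 322 counts and was 1.88-fold lower (1.64 to 2.16), so that its interval holds 2-fold. The intervals of the remaining ligands at the minimum held equal levels. WNT4 had 151 counts in parental and 128 in LM2 cells, WNT9A had 128 and 121, and WNT10B had 84 and 61. The summed RPKM of the 18 ligands was 10.2 in parental and 10.6 in LM2 cells.

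The other 11 ligands had a mean under 50 counts and enter no count of calls. WNT10A had 16 counts in parental and 0 in LM2 cells, 5.26-fold lower at a floor of 3 counts (interval from 3.81-fold). WNT3A, a strong activator of β-catenin, had 15 and 2 counts (7.40-fold lower, 1.72 to 66.7). WNT16 went the other way, from 3 to 12 counts (4.05-fold higher, 1.09 to 22.4). WNT2B had 30 and 28 counts, WNT8B 20 and 23, and WNT11 4 and 1. WNT1 and WNT6 had 2 counts in parental and 0 in LM2 cells each, WNT2 had 0 and 1, and WNT7A and WNT9B had 0 in both, which allows up to 3 counts at this depth. Part of the exons of WNT2B (21.2%) lies under exons of ST7L on the other strand, and whether counting used the strand is not known.

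**Figure D2:**
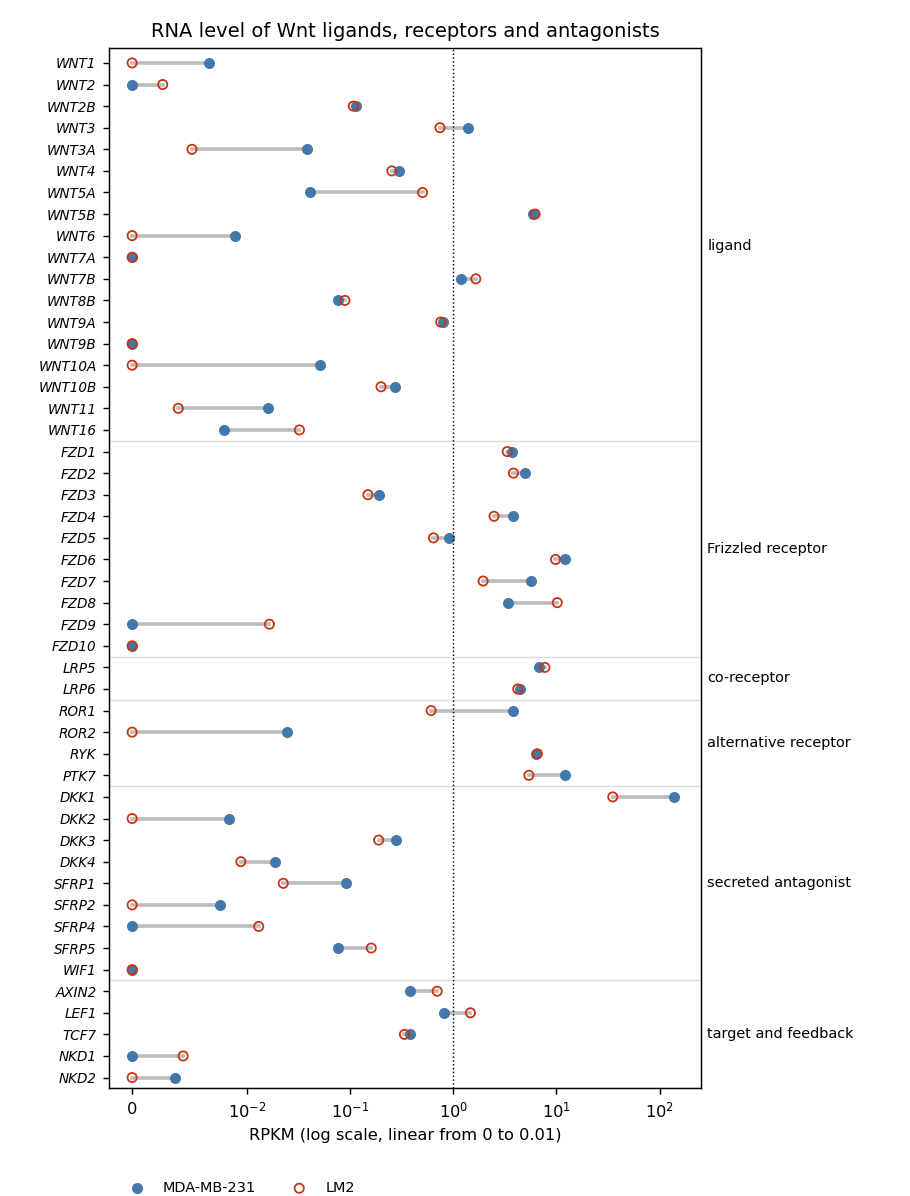
RPKM (x axis, log scale that is linear from 0 to 0.01) of the 48 genes (y axis, grouped by role) in MDA-MB-231 (filled blue) and LM2 (open red), 1 value per cell line, with the dotted line at an RPKM of 1. DKK1 sits farthest to the right at 139 and 35.1, and FZD8 (3.40 and 10.2) is the Frizzled receptor over an RPKM of 1 with the higher value in LM2.

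The Frizzled receptors, the membrane proteins that bind Wnt, differed in make-up more than in sum. Their summed RPKM was 34.9 in parental and 32.4 in LM2 cells. Of 10 Frizzled genes, 8 reached the minimum mean of 50 counts, of which 1 was over 2-fold higher (12.5%, against 4.58% of all named genes), 1 over 2-fold lower (12.5%, against 6.90%) and 6 within 2-fold. FZD8 alone of the 8 was higher in LM2, and the counting intervals of the other 7 lay below a ratio of 1, as did those of 38.3% of all named genes.

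FZD8 had 1416 counts in parental and 4192 in LM2 cells, and was 3.0-fold higher in LM2 (2.82 to 3.19). Its RPKM was 3.40 in parental and 10.2 in LM2 cells. By RPKM it made up 9.75% of the Frizzled sum in parental and 31.5% in LM2 cells, where it stood level with FZD6 (30.2%). As a share of Frizzled counts, which are not per length, FZD8 went from 7.17% (6.82 to 7.54) to 24.8% (24.2 to 25.5). The gene holds the microRNA precursor MIR4683 on the same strand, at 53 and 157 counts, and the 2 entries may share reads. Among the 20 nearest named genes, that precursor was the only one over 2-fold higher.

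FZD7, a receptor linked to stem-like and basal breast cancer cells, had 2879 counts in parental and 968 in LM2 cells. It was 2.94-fold lower in LM2 (2.73 to 3.16), and its RPKM was 5.72 and 1.95. By RPKM it made up 16.4% of the Frizzled sum in parental and 6.01% in LM2 cells. Of its 20 nearest named genes, 2 passed 2-fold downwards and 1 upwards, at a median log2 ratio of -0.03. FZD8 and FZD7 thus lay on opposite sides, with 328 named genes at a larger ratio than FZD8 and 483 at a smaller ratio than FZD7.

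FZD6, which acts in planar polarity, was the most abundant Frizzled gene per length in MDA-MB-231. It had 6028 and 4794 counts, an RPKM of 12.2 and 9.79, and was 1.24-fold lower in LM2 (1.19 to 1.29). FZD4, the receptor of norrin as well as of Wnt, had 3706 and 2370 counts and was 1.54-fold lower (1.47 to 1.63). Of its exon bases, 18.9% lie under exons of PRSS23 on the other strand, a gene with 34306 and 28364 counts, so the counts of FZD4 are uncertain. FZD2 had 2499 and 1888 counts (1.31-fold lower, 1.23 to 1.39) and FZD5 had 786 and 545 (1.42-fold lower, 1.27 to 1.59). FZD1 had 2087 and 1872 counts (1.10-fold lower, 1.03 to 1.17) and FZD3 had 341 and 265 (1.27-fold lower, 1.08 to 1.50). These ratios are small, and no spread between cultures is at hand to set beside them. FZD9 had 0 and 5 counts, and FZD10 had 0 in both.

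**Figure D3:**
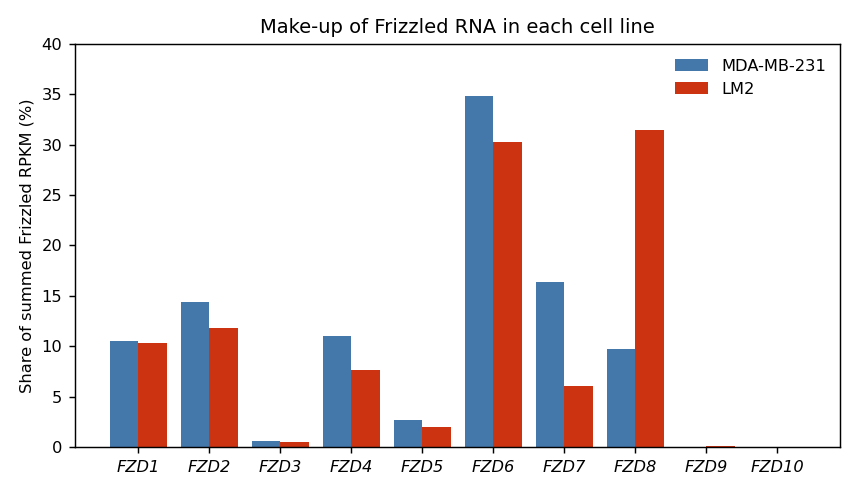
Share of the summed Frizzled RPKM in percent (y axis) held by each of the 10 Frizzled genes (x axis) in MDA-MB-231 (blue) and LM2 (red), 1 value per cell line. FZD8 stands at 9.75% in parental and 31.5% in LM2 cells, and FZD7 at 16.4% and 6.01%.

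The co-receptors LRP5 and LRP6, which pair with Frizzled in the β-catenin arm, were within 2-fold. LRP5 had 4501 counts in parental and 5116 in LM2 cells (1.15-fold higher, 1.11 to 1.20). LRP6 had 5824 and 5487 counts (1.05-fold lower, 1.01 to 1.09). By RPKM, LRP5 was the more abundant of both in each cell line, at 6.72 and 7.73 against 4.42 and 4.22.

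Of the receptors that are not Frizzled, ROR1 and PTK7 were over 2-fold lower in LM2, and RYK was not. ROR1, a tyrosine kinase-like receptor of WNT5A, had 2891 counts in parental and 461 in LM2 cells. It was 6.19-fold lower in LM2 (5.61 to 6.84), and its RPKM was 3.78 and 0.611. A shorter transcript of ROR1 (NM_001083592) had 1234 and 255 counts, 4.78-fold lower. Reads may enter both transcripts, so the isoforms were not measured apart. None of the 20 nearest named genes was over 2-fold lower and 2 were over 2-fold higher, with log2 ratios up to 1.51. Their median log2 ratio was -0.11. ROR1 and WNT5A, receptor and ligand, were the farthest apart of the 25 genes.

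PTK7, a receptor-like protein of the polarity arm, had 6696 counts in parental and 2980 in LM2 cells, and was 2.22-fold lower (2.12 to 2.32). Its 7 listed transcripts lay between 2.19-fold and 2.23-fold lower, and reads of overlapping transcripts can enter more than 1 of them. PTK7 lies on chromosome 6, and all of its 20 nearest named genes had a log2 ratio below 0 (median -0.74, from -1.87 to -0.32), 5 of them over 2-fold lower. The ratio of PTK7 was thus accompanied by its neighbours, and their part in it was not tested. RYK, a receptor with an inactive kinase, had 2415 and 2477 counts, a ratio of 1.04 (0.982 to 1.10). ROR2, the close relative of ROR1, had 13 counts in parental and 0 in LM2 cells (4.28-fold lower at the floor, interval from 3.01-fold).

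DKK1, the Dickkopf antagonist of LRP5 and LRP6, was by far the most abundant of the 48 genes in both cell lines. It had 32677 counts in parental and 8181 in LM2 cells, and was 3.94-fold lower in LM2 (3.85 to 4.04). Its RPKM was 139 in parental and 35.1 in LM2 cells. By RPKM it ranked 240 among the named genes in parental and 899 in LM2 cells. DKK1 held 99.5% of the counts of the 9 antagonists in parental and 98.5% in LM2 cells. Their summed RPKM was 139 in parental and 35.5 in LM2 cells, and this sum is nearly that of DKK1. Of the exon bases of DKK1, 9.61% lie under exons of PRKG1-AS1 on the other strand, which had 152 and 113 counts. None of the 20 nearest named genes was over 2-fold lower and 1 was over 2-fold higher, at a log2 ratio of 6.85. Their median log2 ratio was 0.45. The window upstream of DKK1 is the one with 2 TCF/LEF matches.

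The other antagonists were at low counts. DKK3, a divergent Dickkopf protein, had 93 and 63 counts (1.46-fold lower, 1.05 to 2.04), and its 3 listed transcripts had the same counts. SFRP1, a secreted Frizzled-related protein often silenced in breast tumours, had 53 and 13 counts (4.02-fold lower, 2.16 to 8.05). SFRP5 went the other way, from 19 to 39 counts (2.08-fold higher, 1.17 to 3.81). Both have a mean under 50 counts and are not among the 25 genes. DKK2 had 4 and 0 counts, DKK4 2 and 1, SFRP2 2 and 0, and SFRP4 0 and 5. WIF1 had 0 counts in both.

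Of the genes that report or restrain β-catenin activity, the 5 grouped here as targets and feedback were low in both cell lines. AXIN2, a scaffold of the destruction complex and a standard target of the pathway, had 211 counts in parental and 382 in LM2 cells (1.83-fold higher, 1.55 to 2.18). LEF1, a nuclear partner of β-catenin and itself a target, had 379 and 682 counts (1.82-fold higher, 1.61 to 2.07). Both intervals hold 2-fold, so whether either gene passed it cannot be said at this depth. The 4 listed transcripts of LEF1 were between 1.82-fold and 1.95-fold higher. LEF1-AS1 on the other strand, over 5.2% of the exon bases of LEF1, had 48 and 90 counts. Of the exon bases of AXIN2, 25.2% are shared with another gene on the same strand, for which no count was found under its name. TCF7, another partner of β-catenin, had 165 and 144 counts, a ratio of 0.884 (0.702 to 1.11). Of its exon bases, 2.09% lie under exons of SKP1 on the other strand, which had 7932 and 7501 counts. NKD1, a feedback inhibitor of Dishevelled, had 0 and 5 counts, and NKD2 had 1 and 0. Their RPKM stayed under 1 in both cell lines, other than that of LEF1 in LM2 (1.47).

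**Figure D4:**
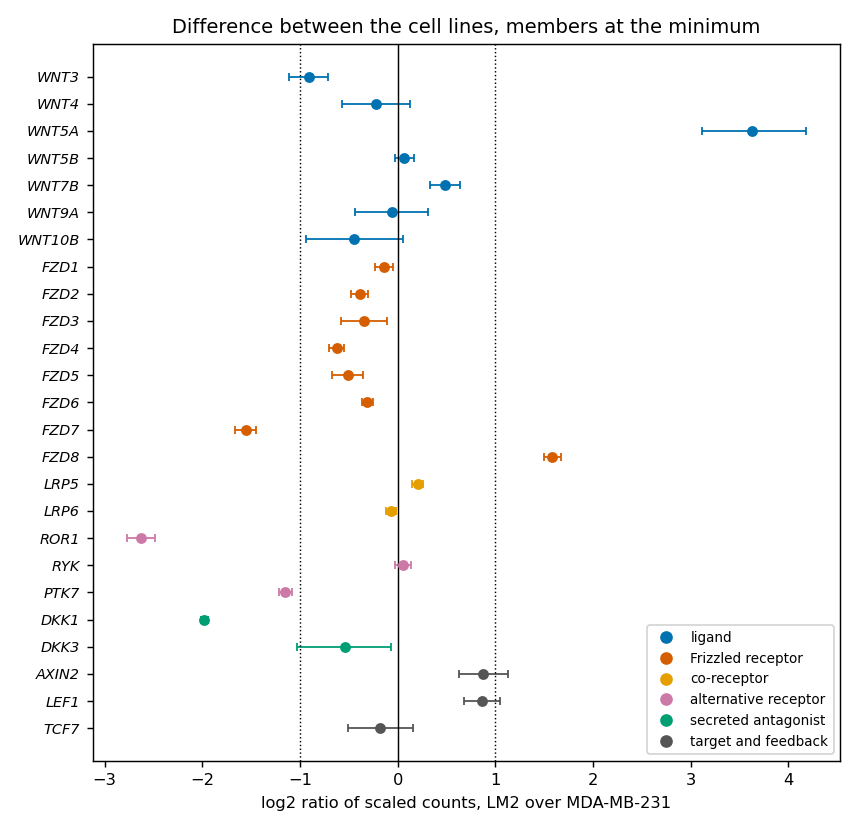
Log2 ratio of scaled counts, LM2 to parental (x axis), of the 25 genes at the minimum count (y axis, coloured by role), 1 value per cell line. Bars are exact 95% intervals for counting error only, and dotted lines mark 2-fold. WNT5A (3.63) and FZD8 (1.58) lie to the right of them, and ROR1 (-2.63), DKK1 (-1.98), FZD7 (-1.55) and PTK7 (-1.15) to the left.

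Other genes of the pathway were taken from lists of 125 names, of which 124 were found and 92 had a mean of at least 50 counts. Of the 92, LM2 had 5 at over 2-fold more (5.43%) and 8 at over 2-fold less (8.7%), beside 4.58% and 6.90% of all named genes. Their median log2 ratio was -0.066. The core of the β-catenin arm lay within 2-fold. CTNNB1, the gene of β-catenin, had 29654 counts in parental and 36600 in LM2 cells (1.25-fold higher, 1.23 to 1.27). The destruction complex genes APC (1.24-fold higher, 1.18 to 1.30) and AXIN1 (1.34-fold lower, 1.25 to 1.43) went opposite ways, and GSK3B had a ratio of 1.05 (0.997 to 1.11). Of 23 genes of the signalosome and destruction complex at the minimum, only CXXC4, an inhibitor of Dishevelled, passed 2-fold, with 54 and 192 counts (3.60-fold higher, 2.65 to 4.97). That is 4.35% of the list, near the 4.58% of all named genes. None of 11 nuclear factors passed 2-fold.

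At the cell surface, RNF43, a ubiquitin ligase that removes Frizzled receptors, had 237 counts in parental and 46 in LM2 cells (5.08-fold lower, 3.70 to 7.13). KREMEN2, a receptor with which DKK1 acts on LRP6, had 91 and 43 counts (2.09-fold lower, 1.44 to 3.08), an interval that holds 2-fold. KREMEN1 had 143 and 92 counts and was 1.53-fold lower (1.17 to 2.02). The genes needed to make and export Wnt lay within 2-fold, PORCN, the acyltransferase, at 1.66-fold lower (1.50 to 1.85) and WLS, the carrier, at 1.39-fold higher (1.33 to 1.46). In the polarity and calcium arms, 3 of 25 genes passed 2-fold downwards (12.0%, against 6.90% of all named genes) and 2 upwards (8.0%, against 4.58%). DAAM2 and DAAM1, formins that link Dishevelled to RHOA, were 6.15-fold lower (4.51 to 8.56) and 2.49-fold lower (2.26 to 2.75). NFATC2, a calcium-dependent transcription factor, was 2.35-fold lower (1.93 to 2.87), an interval that holds 2-fold. PLCB1, a phospholipase, had 74 and 800 counts (11.0-fold higher, 8.62 to 14.1), and CELSR1, a polarity cadherin, was 3.52-fold higher (3.15 to 3.95).

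Known targets of β-catenin lay on both sides of equal levels. Of 18 at the minimum, 2 passed 2-fold upwards (11.1%, against 4.58% of all named genes) and 3 downwards (16.7%, against 6.90%). CCND1, the gene of cyclin D1, had 44245 and 42788 counts (1.02-fold lower, 1.01 to 1.03). MYC had 8321 and 7864 (1.04-fold lower, 1.01 to 1.08). SOX4, a transcription factor, was 3.53-fold higher (3.33 to 3.74) and the adhesion gene NRCAM 4.56-fold higher (3.34 to 6.33). L1CAM, also an adhesion gene, was 3.14-fold lower (2.92 to 3.38), the receptor MET 2.24-fold lower (2.18 to 2.30) and the nuclear receptor PPARD 2.01-fold lower (1.89 to 2.13), an interval that holds 2-fold. These genes have many other inputs besides β-catenin.

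**Figure D5:**
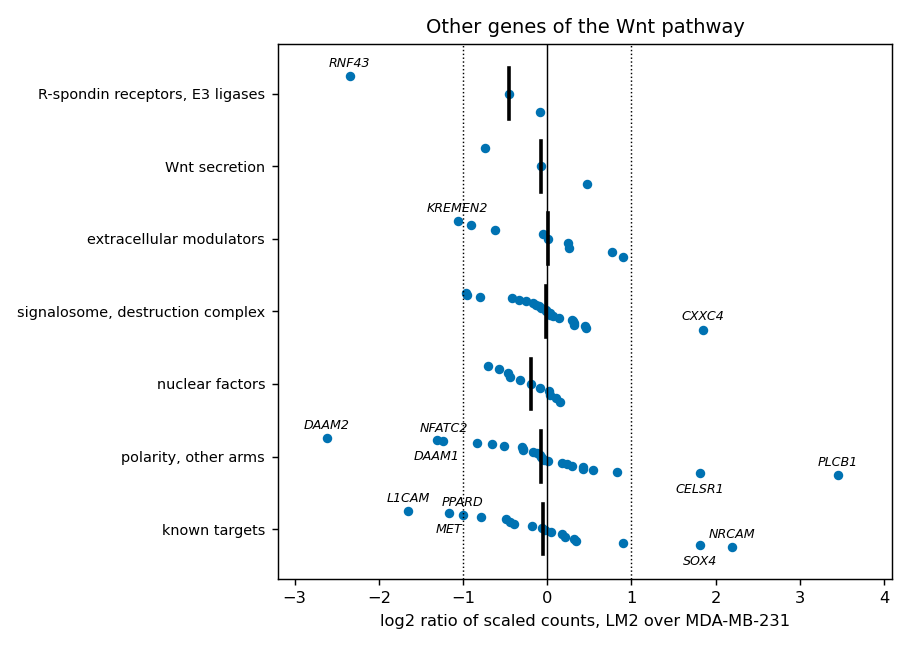
Log2 ratio, LM2 to parental (x axis), of the 92 other pathway genes at the minimum count in 7 lists (y axis). Points are genes with a single value each, black bars show the median of a list, dotted lines mark 2-fold, and the 13 named genes lie beyond them, from PLCB1 at 3.45 to DAAM2 at -2.62.

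The labelled cells were checked against markers. The 5 genes of MDA-MB-231 cells (VIM, CD44, EGFR, KRT8 and KRT18) had RPKM values from 11.6 to 550.0 in MDA-MB-231 and from 9.59 to 951 in LM2. Among the luminal genes, ESR1 had 2 counts in parental and 8 in LM2 cells, and PGR had 7 and 2. GATA3 had 88 and 95 counts, and FOXA1 had 10 and 57 (5.78-fold higher, 2.92 to 12.7). Of 15 markers of blood, endothelial, fibroblast, liver and neural cells, CD3E, CDH5 and TTR had 0 counts in both. Others were counted: the blood marker CD14 had 199 and 114 counts, and the neural markers GFAP and PAX6 had 385 and 195, and 115 and 142. PECAM1, an endothelial marker, had 48 and 343 counts, and COL1A1, a fibroblast collagen, 209 and 532. Of the 15, 5 reached the minimum mean of 50 counts, and these 2 of the 5 were over 2-fold higher, against 4.58% of all named genes. The other fibroblast genes were not higher: LUM had 76 and 18 counts (4.17-fold lower, 2.47 to 7.40), COL3A1 17 and 0, and DCN 1 and 0. The part of these markers in the results was not tested. The summed RPKM of the endothelial list was 0.0911 in parental and 0.614 in LM2 cells, and that of the fibroblast list 0.572 and 0.762.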

How the data were processed

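RNA of MDA-MB-231 and LM2 cells was extracted with Trizol. The submitters' processing notes name bcl2fastq, TopHat2 2.0.13 and the build hg19 (GRCh37). Counter, annotation and strand setting were not given in the sources used here. Raw read counts of each transcript, as deposited by the authors, entered all ratios. The deposited RPKM values, also made by the authors, are counts over length and column total (largest relative difference 4.98e-06). The genes and lists were chosen with earlier results of these data known.

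Symbols were paired through RefSeq (GRCh38.p14) and GENCODE release 29 for 62331 transcripts, and these also gave gene order and exon overlaps. The planned edgeR test needs a column per sample, which the table lacks. Ratios with exact intervals took its place, and a gene was counted at over 2-fold and a mean of at least 50 counts. For a fold, 3 counts stood in for a count of 0 as a floor, and no fold was given where both counts were at or under it. All 48 genes are named, as are other pathway genes past 2-fold and 8 fixed ones. The calculation was tested on simulated counts that held counting error only, so that test does not cover variation between cultures. Alternatives used edgeR 4.0.16 and DESeq2 1.42.0 scalings, other minimums, transcripts and pseudocounts. Other tools were Python 3.11.15 with pandas 2.3.3, scipy 1.17.1, numpy 2.4.6 and matplotlib 3.10.9, and R 4.3.3.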

Additional observations from a re-analysis of the deposited data

How the results depend on the processing

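The direction of the 6 genes past 2-fold was the same under all 10 alternatives, and all 6 stayed past 2-fold under 9 of them. On the log2(RPKM + 1) scale, WNT5A was at 0.53, which left 1 of the 25 genes over 2-fold higher, beside 197 of 15440 named genes. The median log2 ratio of the 25 genes on that scale was -0.0545, beside -0.0024 over all named genes. With no minimum count, 4 of 38 genes with a ratio passed 2-fold upwards and 9 downwards, beside 2223 and 2641 of 22519 named genes. The Wnt genes added were WNT16 and SFRP5 on the higher side and WNT3A, WNT10A, WNT11, ROR2 and SFRP1 on the lower side. Each of them had a mean under 50 counts. That alternative also left out genes with both counts at or under 3. Scaling by TMM, upper-quartile or DESeq2 factors moved all log2 ratios by at most 0.0141. No paired analysis was possible because the table holds 1 column per cell line and no column per sample, and for the same reason leaving out each replicate was not run. These results are limited by the lack of a spread between cultures, and by the media that differed with the cell line. For the 6 genes past 2-fold, the counting intervals lay wholly beyond 2-fold, though that of WNT5A rests on 33 parental counts. For genes under 50 counts, depth limits the results as well.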
